A study of Mus musculus with 6 samples.

Results

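The genes described here are 31 interferon-stimulated genes, a set of mouse genes that interferon signalling is known to switch on, followed across progenitors given EBF1, Pax5 or an empty vector. They were found by their symbols in the annotation of the authors' deposited table. Each of the 31 had 1 probe set with 1 symbol, out of 20473 genes with such a probe set. Dim genes were left out of the tests: a gene had to exceed an array's 30th percentile on 2 or more arrays, which kept 26 of the members and 15295 genes in all. Of these 26, 25 were above that mark on all 6 arrays, and Oasl2 was above it on 4, among them both Control arrays.

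RNA of sorted cells was hybridised to 6 Affymetrix arrays at 24 hours after infection, with 2 arrays for each of 3 retroviral vectors. All 3 groups were the same pre-pro-B line, in which both copies of Ebf1 are disrupted. EBF1 cells received the MigY-EBF1 vector, Pax5 cells the MigR-Pax5 vector, and Control cells the MigR1 vector with no factor. The line grew on a layer of OP9 stromal cells, in medium with IL-7, FL and SCF (10 ng per ml of each), and 50 ng of RNA was amplified for each array. By their names the EBF1 vector is of the MigY type and the other vectors are of the MigR type, so in any comparison of EBF1 cells the factor and a difference in vector backbone cannot be told apart. Every group carried a retrovirus, and uninfected cells were not analysed here. The labels do not say whether the arrays of a group came from separate infections. The p-values therefore measure only the spread between these arrays, which may be technical. The smallest p that an exact permutation of 2 arrays against 2 can give is 0.333, so the tests below come from limma, fitted over all genes.

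Interferons of type I and type III are secreted when a cell senses foreign nucleic acid. Type I and type III interferons bind receptors that signal through the kinases JAK1 and TYK2 to a complex that holds STAT2 and IRF9 and binds the interferon-stimulated response element (ISRE) in front of its target genes. Type II interferon, the product of Ifng, signals through JAK1 and JAK2 to genes with a gamma-activated site (GAS). The induced genes encode sensors of viral RNA, proteins that degrade RNA or block translation, proteins that trap virus particles, and parts of the machinery that loads peptides on MHC class I. EBF1 and Pax5 are the transcription factors that specify and commit the B lineage.

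As a check of the labels, the brighter Ebf1 probe set lay at 9.88 and 9.96 on the EBF1 arrays, 8.92 and 8.87 on the Pax5 arrays and 8.87 and 8.87 on the Control arrays (log2 RMA values, on which a difference of 1 is a change by a factor of 2). Pax5 lay at 6.01 and 6.17 on the EBF1 arrays, 11.42 and 11.33 on the Pax5 arrays and 4.93 and 5.10 on the Control arrays. These probe sets were highest on the arrays labelled for their vector. A second, dimmer Ebf1 probe set went the other way, at 4.37 and 4.25 on the EBF1 arrays, 6.02 and 6.04 on the Pax5 arrays and 4.70 and 4.75 on the Control arrays. Whether either Ebf1 probe set lies in the disrupted or in the transduced part of the gene was not analysed here, so the Control values do not check the knockout. The defining progenitor genes Ptprc, Il7r, Flt3 and Kit were tested and lay between 7.13 and 10.05 on every array. The summed linear signal of 11 progenitor markers was 3910 to 4007 in EBF1 cells, 4353 to 4481 in Pax5 cells and 5230 to 5262 in Control cells. Of these 11, 0 rose and 6 fell with EBF1, among them Kit, with a log2 difference of -0.99 (adjusted p = 0.00461, limma), and Dntt, with -1.75 (0.00215), and 0 rose and 4 fell with Pax5, among them Il7r, with -0.79 (0.00498), and Dntt, with -1.27 (0.00574). The array medians ran between 4.06 and 4.17. Differences between replicate arrays had an SD over genes of 0.161 in EBF1 cells, 0.263 in Pax5 cells and 0.152 in Control cells, so the Pax5 arrays differed most from each other. Markers of other cells that the cultures could hold differed between groups or arrays too. The summed linear signal of 10 T and NK markers was 301 to 311 in EBF1 cells, 746.4 to 789.1 in Pax5 cells and 372.2 to 384.2 in Control cells. Of the 8 of these that were tested, 1 rose with Pax5, namely Nkg7 by 1.30 (adjusted p = 0.0012, limma), and Cd3g and Ncr1 were below the filter. Nkg7 alone made up 200.1 to 209.7 of the sum in EBF1 cells, 620.3 to 623.7 in Pax5 cells and 251.5 to 253 in Control cells. The sum of 9 plasmacytoid dendritic cell markers was 3176 to 3257 in EBF1 cells, 3577 to 3904 in Pax5 cells and 3984 to 4000 in Control cells, with Cd209d below the filter, and Cox6a2 alone made up 2258 to 2313, 2704 to 2979 and 2719 to 2733 of it in the same 3 groups. The 8 tested macrophage and monocyte markers summed to 176.6 to 177.1 in EBF1 cells, 229.9 to 239.6 in Pax5 cells and 230.1 to 236.5 in Control cells. Of these 8, 2 fell with EBF1, Itgam with -1.06 (adjusted p = 0.0186, limma) and Adgre1 with -0.72 (0.0106), and 0 passed with Pax5 (2 at an unadjusted p under 0.05). The sum of 14 stromal markers was 1057 to 1071 in EBF1 cells, 891.6 to 1049 in Pax5 cells and 813.5 to 839.5 in Control cells, with Lum and Postn below the filter. Of the 12 tested, 1 rose with EBF1, namely Bgn by 0.62 (adjusted p = 0.0175, limma), and 0 fell. With Pax5 0 passed (5 at an unadjusted p under 0.05). For EBF1 against Pax5, 1 was higher, Fn1 by 0.41 (adjusted p = 0.0436, limma), and 0 were lower. Sums of 8 granulocyte markers were 230 to 241.5 in EBF1, 187.6 to 279.9 in Pax5 and 250.2 to 250.3 in Control cells. On Pax5 arrays 1 and 2, S100a8 lay at 4.41 and 5.75 and S100a9 at 4.85 and 6.45. Of the 6 tested, Mpo fell with Pax5 by -1.03 (adjusted p = 0.00441, limma). With EBF1 0 passed (2 at an unadjusted p under 0.05). The part of other cells in the results below was not tested, and in bulk RNA fewer cells of a type and less RNA per cell cannot be told apart.

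The feature that the members are best known to share is the ISRE, and its letters were looked for in the promoters. RefSeq windows (GRCm38.p6, 250 bases before to 50 after the start of transcription) were matched for 23 of the 31 members. The core letters, GAAA followed after any 2 bases by another GAAA and searched on both strands, were found in 12 of these 23 (52.17%), against 3.99% of the 27025 genes with a window. The 12 are Bst2, Ddx58, Eif2ak2, Gbp2, Gbp3, Ifih1, Ifit1, Ifit3, Isg15, Oas3, Rsad2 and Stat2. The GAS letters TTCNNNGAA, a palindrome, were found in 6 (26.09%), against 9.55% of those genes, and in Bst2 these letters overlapped the ISRE letters. The palindrome known as the EBF1 motif, TCCC followed after any 2 bases by GGGA, was found in none of the 23, against 1.06% of those genes. Mx1, Mx2, Zbp1, Oas2, Usp18, Dhx58, Rtp4 and Parp14 are named only. A match is a description of letters and not of a bound site.

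Stretches of 150 bases are printed for 5 members whose ISRE letters lie before the start and differ in their arrangement. They are Isg15 and Bst2, where the letters repeat in overlapping runs, Ifit1, where they occur at separate places, and Rsad2 and Stat2, where they occur at 1 place. The sequences run 5′ to 3′ on the strand of the gene, are from RefSeq (GRCm38.p6), and carry the matched letters in capitals (a pair of GAAA, or a pair of TTTC where the match is on the other strand). Isg15 is at chr4:156200819-156200968 on the minus strand, Bst2 at chr8:71537473-71537622 on the minus strand, Ifit1 at chr19:34640739-34640888 on the plus strand and Rsad2 at chr12:26456453-26456602 on the minus strand, each covering the bases from -150 to -1. Stat2 is at chr10:128270248-128270397 on the plus strand and covers the bases from -250 to -101.
Isg15: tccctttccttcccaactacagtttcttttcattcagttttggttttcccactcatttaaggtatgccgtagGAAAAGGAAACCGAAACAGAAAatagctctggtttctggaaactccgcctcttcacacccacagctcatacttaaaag
Bst2: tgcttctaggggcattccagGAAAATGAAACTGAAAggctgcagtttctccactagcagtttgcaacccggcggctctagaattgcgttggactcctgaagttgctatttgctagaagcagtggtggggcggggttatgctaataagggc
Ifit1: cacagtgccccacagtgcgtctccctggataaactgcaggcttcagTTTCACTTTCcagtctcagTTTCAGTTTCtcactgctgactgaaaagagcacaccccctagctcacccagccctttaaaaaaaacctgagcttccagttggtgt
Rsad2: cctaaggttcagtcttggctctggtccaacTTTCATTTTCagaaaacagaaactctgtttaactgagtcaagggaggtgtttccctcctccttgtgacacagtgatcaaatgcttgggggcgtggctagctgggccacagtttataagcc
Stat2: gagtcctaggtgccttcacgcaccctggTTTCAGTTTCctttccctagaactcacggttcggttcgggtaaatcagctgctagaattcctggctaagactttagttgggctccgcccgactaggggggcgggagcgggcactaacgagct
In Isg15 the letters start at bases -78, -72 and -66 from the start of transcription. In Bst2 they start at -130 and -124. In Ifit1 they start at -104 and -85, in Rsad2 at -120 and in Stat2 at -222. Of these genes, Bst2 was called for EBF1 against Pax5, and Ifit1 stayed below the filter on every array. Isg15, Rsad2 and Stat2 did not pass the test in any comparison, and the identity of the Isg15 probe set is uncertain, as described below. Of the 9 tested members with the ISRE letters, Ddx58 was called with EBF1, Ifih1 with Pax5 and Bst2 for EBF1 against Pax5. Of the 9 tested members whose window lacks the letters, Xaf1 was called for EBF1 against Pax5. Among the 8 members with no window, all tested, calls fell on Mx1 and Mx2 with EBF1 and on Mx2 with Pax5. For EBF1 against Pax5 they fell on Mx1, Mx2, Zbp1 and Oas2. Of all tested genes, 5.6%, 4.22% and 13.9% were called for EBF1 against Control, Pax5 against Control and EBF1 against Pax5. Whether calls go with the letters was not tested.

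EBF1 cells were set against Control cells to ask which members followed EBF1 in cells that lack it. Mx1, an antiviral GTPase gene, rose, and its neighbour Mx2 and the RNA sensor gene Ddx58 fell, while the other 23 tested members did not pass the test. These 3 are 11.5% of the members tested, beside 5.6% of all tested genes called in either direction (3.14% higher and 2.46% lower). A call is an adjusted p under 0.05 in limma over all 15295 genes. Of the 26 log2 differences, 19 were negative (73.1%), against 47.8% of all genes, and their median was -0.14, against 0.01 for all genes. The differences ran between -0.69 and 0.62, so no member changed by a factor of 2. At an unadjusted p under 0.05 there were 8 members lower and 1 higher, together 34.6% of the members beside 19.9% of all genes. The count was 0 when either EBF1 array or either Control array was left out, and 5 when either Pax5 array was left out.

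Pax5 cells were set against Control cells in the same way. Mx2 rose and Ifih1, another RNA sensor gene, fell, while the other 24 tested members did not pass. These 2 are 7.69% of the members, beside 4.22% of all tested genes (2.16% higher and 2.06% lower). Of the differences, 15 of 26 were negative (57.7%), against 58% of all genes, and their median was -0.05, against -0.04 for all genes. They ran between -0.77 and 1.30. At an unadjusted p under 0.05 there were 4 members lower and 5 higher, 34.6% of the members beside 20.8% of all genes. The count was 1 when either EBF1 array was left out, 0 without Control array 1, 1 without Control array 2, 4 without Pax5 array 1 and 2 without Pax5 array 2.

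EBF1 cells were then set against Pax5 cells directly. Factor and vector backbone differ together in this comparison. Mx1 and Bst2 were higher in EBF1 cells, and Mx2, Zbp1, Oas2 and Xaf1 were lower. These 6 are 23.1% of the members, beside 13.9% of all tested genes (8.71% higher and 5.2% lower). Of the differences, 16 of 26 were negative (61.5%), against 42.9% of all genes, with a median of -0.09, against 0.04 for all genes. They ran between -1.83 and 0.57. At an unadjusted p under 0.05 there were 8 members lower and 4 higher, 46.2% of the members beside 29.9% of all genes. The count was 1 when either EBF1 array was left out, 4 when either Control array was left out, 9 without Pax5 array 1 and 7 without Pax5 array 2. The 3 comparisons share arrays and are not independent of each other. The 11 calls fall on 8 members, and the other 18 tested members were called in no comparison.

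**Figure D1:**
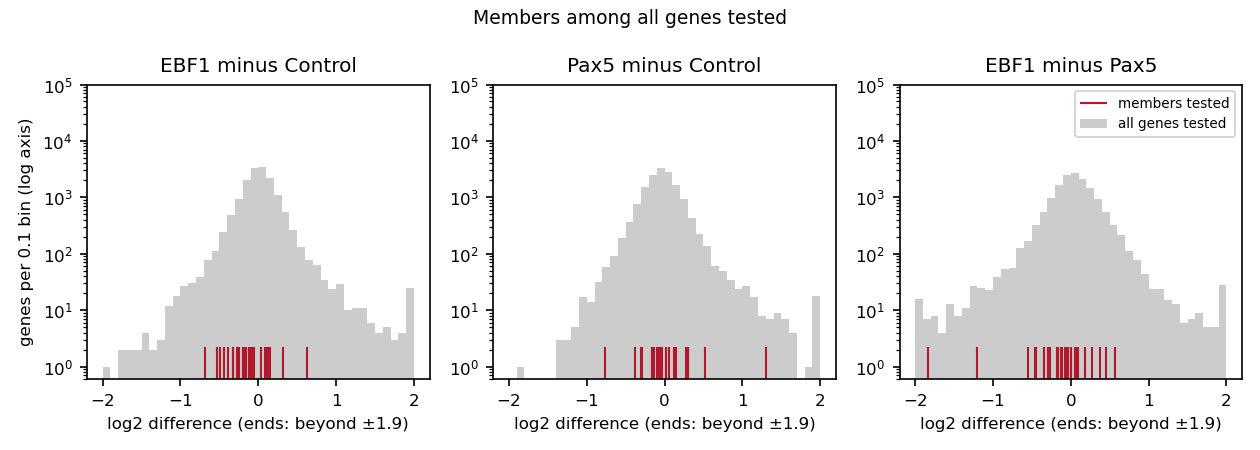
Log2 differences of the 26 tested members (red ticks) over the distribution of all 15295 tested genes (grey bars, number of genes in bins 0.1 wide, log axis) in the 3 comparisons. Most ticks lie within 0.5 of 0, with Mx2 at 1.30 for Pax5 minus Control and at -1.83 for EBF1 minus Pax5 farthest out.

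**Figure D2:**
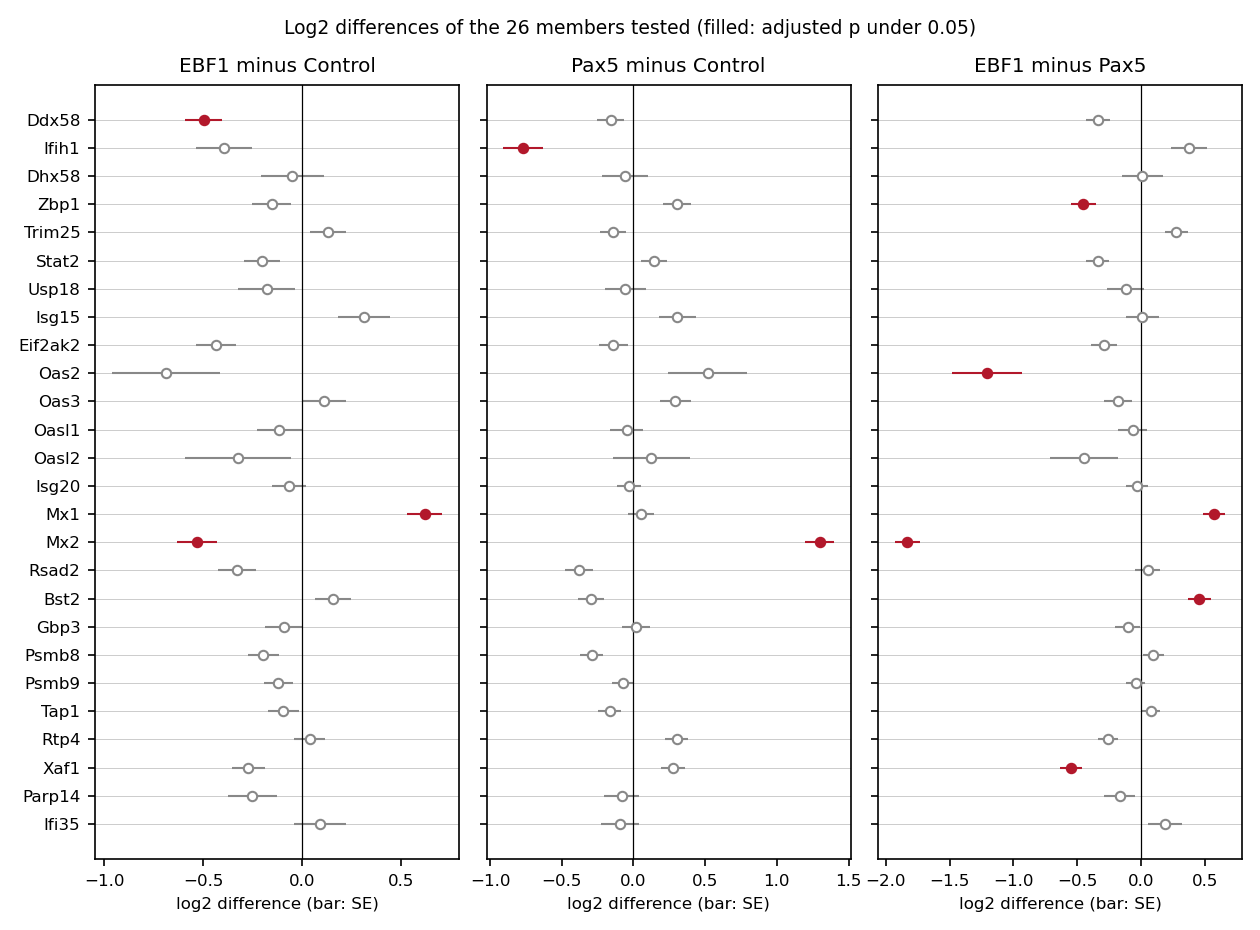
Log2 difference of each tested member with its SE from limma, for EBF1 minus Control, Pax5 minus Control and EBF1 minus Pax5 (filled red: adjusted p under 0.05). Mx2 is filled in all 3 panels, Mx1 in both panels with EBF1, and 18 members in none.

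The sensors bind foreign nucleic acid, and some of them start the production of interferon. Ddx58 encodes RIG-I, which recognises viral RNA ends. Its log2 RMA values were 5.68 and 5.66 in EBF1 cells, 6.10 and 5.92 in Pax5 cells and 6.11 and 6.22 in Control cells. Both EBF1 arrays lay below all the others, and the Pax5 arrays lay just under the Control arrays without overlap. Ddx58 fell by 0.50 with EBF1 against Control (SE 0.09, adjusted p = 0.0372, limma). The call did not hold without EBF1 array 1 or 2 (adjusted p 0.215 and 0.211) or without Control array 1 or 2 (0.174 and 0.255), and the difference stayed between -0.56 and -0.44. Its difference was -0.16 for Pax5 against Control (adjusted p = 0.385). Against Pax5 it was -0.34 (adjusted p = 0.0645), and without Pax5 array 2 it was -0.43 (0.0412).

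Ifih1 encodes MDA5, the sensor of long viral RNA. It lay at 4.44 and 4.42 in EBF1 cells, 4.25 and 3.86 in Pax5 cells and 4.73 and 4.92 in Control cells. The 3 groups did not overlap, with Pax5 lowest, EBF1 in between and Control highest. Ifih1 fell by 0.77 with Pax5 against Control (SE 0.14, adjusted p = 0.0392, limma), to 0.587 of its Control level. That call was lost without either EBF1 array (adjusted p = 0.116 for each), without Control array 1 or 2 (0.169 and 0.262) and without Pax5 array 2 (0.058), with differences between -0.86 and -0.58. Without Pax5 array 1 the call held, at -0.96 (0.0111). For EBF1 against Control it was -0.40 (adjusted p = 0.187). For EBF1 against Pax5 it was 0.37 (adjusted p = 0.138), and 0.56 without Pax5 array 1 (0.0188). Ddx58 was thus called with EBF1 and Ifih1 with Pax5, and neither passed the test of EBF1 against Pax5 on all 6 arrays.

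Zbp1, a sensor of left-handed nucleic acid, lay at 4.19 and 4.09 in EBF1 cells, 4.68 and 4.51 in Pax5 cells and 4.36 and 4.23 in Control cells. The groups did not overlap, with Pax5 highest and EBF1 lowest. It was lower in EBF1 than in Pax5 cells by a log2 difference of -0.46 (SE 0.10, adjusted p = 0.0321, limma). The call was lost without EBF1 array 1 or 2 (adjusted p 0.124 and 0.18) and without either Control array (0.0706). Against Control its differences were -0.15 with EBF1 (adjusted p = 0.475) and 0.30 with Pax5 (0.168). Dhx58, which encodes the RIG-I relative LGP2, lay at 4.76 and 4.81 in EBF1 cells, 4.89 and 4.66 in Pax5 cells and 4.61 and 5.06 in Control cells. Its Control arrays spanned all the others, and its adjusted p values were at least 0.869. Trim25, the ubiquitin ligase known to act on RIG-I, lay at 8.17 and 8.08 in EBF1 cells, 7.94 and 7.77 in Pax5 cells and 7.96 and 8.02 in Control cells. Its groups did not overlap, but it passed in no comparison, with 0.27 for EBF1 against Pax5 (adjusted p = 0.105) and 0.36 without Pax5 array 1 (0.0386). Among these 5 genes, 4 had a negative difference against Control with EBF1 and 4 with Pax5, beside 47.8% and 58% of all tested genes. Dhx58 is counted in both, at -0.05 and -0.06.

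Signalling and feedback members carry the interferon signal or damp it. Stat2, a subunit of the complex that binds the ISRE, lay at 6.92 and 6.91 in EBF1 cells, 7.36 and 7.15 in Pax5 cells and 7.12 and 7.11 in Control cells. The EBF1 arrays lay below and the Pax5 arrays above the Control arrays. The difference was -0.34 for EBF1 against Pax5 (SE 0.09, adjusted p = 0.0577, limma), and -0.44 without Pax5 array 2 (0.0270). Set against Control, the difference came to -0.20 in EBF1 cells (adjusted p = 0.296) and 0.14 in Pax5 cells (0.422).

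Isg15, a small protein that is joined to others as ubiquitin is, lay at 4.67 and 4.92 in EBF1 cells, 4.93 and 4.65 in Pax5 cells and 4.49 and 4.47 in Control cells. All arrays with a factor lay above both Control arrays. Its differences were 0.31 with EBF1 (adjusted p = 0.252, limma) and 0.31 with Pax5 (0.25), which did not pass. The identity of this probe set is uncertain: in the deposited annotation 16 of its 25 probes match the Isg15 transcript, and it is placed on chromosome 17, while the gene is annotated on chromosome 4. Usp18, which removes ISG15 from proteins and blocks the type I receptor, lay at 3.47 and 3.08 in EBF1 cells, 3.36 and 3.43 in Pax5 cells and 3.35 and 3.55 in Control cells, with all groups overlapping. Over these 3 genes no comparison gave a call, and at an unadjusted p under 0.05 there was 1, namely Stat2 for EBF1 against Pax5.

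The RNA-directed effectors act on viral RNA or on its translation. Eif2ak2 encodes PKR, a kinase that halts translation. It lay at 5.37 and 5.29 in EBF1 cells, 5.52 and 5.73 in Pax5 cells and 5.70 and 5.83 in Control cells. Both EBF1 arrays lay below all the others, while Pax5 and Control overlapped. Its difference was -0.44 for EBF1 against Control (SE 0.10, adjusted p = 0.0699, limma), which missed the threshold, and the adjusted p was 0.0323 without either Pax5 array. For EBF1 against Pax5 it was -0.30 (adjusted p = 0.114), and -0.40 without Pax5 array 1 (0.0357).

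The Oas genes encode enzymes that make a messenger which activates the nuclease RNase L, and the Oasl genes their relatives. Oas2 lay at 4.32 and 4.45 in EBF1 cells, 5.32 and 5.86 in Pax5 cells and 5.44 and 4.70 in Control cells. The EBF1 arrays lay below all the others, and the Control arrays, far apart from each other, overlapped the Pax5 arrays. Oas2 was lower in EBF1 than in Pax5 cells by -1.21 (SE 0.28, adjusted p = 0.0373, limma), 2.31-fold. That call was lost without EBF1 array 1 or 2 (adjusted p 0.19 and 0.154) and without Pax5 array 2 (0.108), and the difference stayed between -1.48 and -0.94. Set against Control, the difference came to -0.69 in EBF1 cells (adjusted p = 0.236), and 0.52 in Pax5 cells (0.34). Both values turn on the Control arrays. Without Control array 1 they were -0.32 with EBF1 and 0.89 with Pax5, and without Control array 2 they were -1.06 and 0.15. With Pax5 the value also ran to 0.25 without Pax5 array 2 and to 0.79 without Pax5 array 1, and none of these passed.

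Oasl2 lay at 2.91 and 3.02 in EBF1 cells, 3.86 and 2.96 in Pax5 cells and 3.29 and 3.29 in Control cells. Pax5 array 1 stood alone above the rest, and Pax5 array 2 lay between the EBF1 arrays. Its difference was 0.12 for Pax5 against Control (adjusted p = 0.826, limma) and -0.45 for EBF1 against Pax5 (0.318). Without Pax5 array 2 these were 0.57 (adjusted p = 0.0387) and -0.90 (0.00597), so Oasl2 passed only with that array left out. Oas3 lay at 3.29 and 3.12 in EBF1 cells, 3.29 and 3.48 in Pax5 cells and 3.02 and 3.16 in Control cells. Its Pax5 arrays lay above the Control arrays, with a difference of 0.29 (adjusted p = 0.205), and its EBF1 arrays overlapped both other groups. Oasl1 lay between 4.08 and 4.37 on the 6 arrays, and Isg20, an exonuclease gene, between 5.26 and 5.41, with groups that overlapped or nearly so and adjusted p values of at least 0.669. All 6 tested genes of this group had a negative difference for EBF1 against Pax5 (range -1.21 to -0.03). Of all tested genes, 42.9% had a negative difference in this comparison. Of the 6, 1 passed, beside the 5.2% of all genes that were called lower. Without Pax5 array 1 the difference was 0.02 for Oasl1 and 0.002 for Oasl2, and without Pax5 array 2 it was 0.04 for Isg20.

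**Figure D3:**
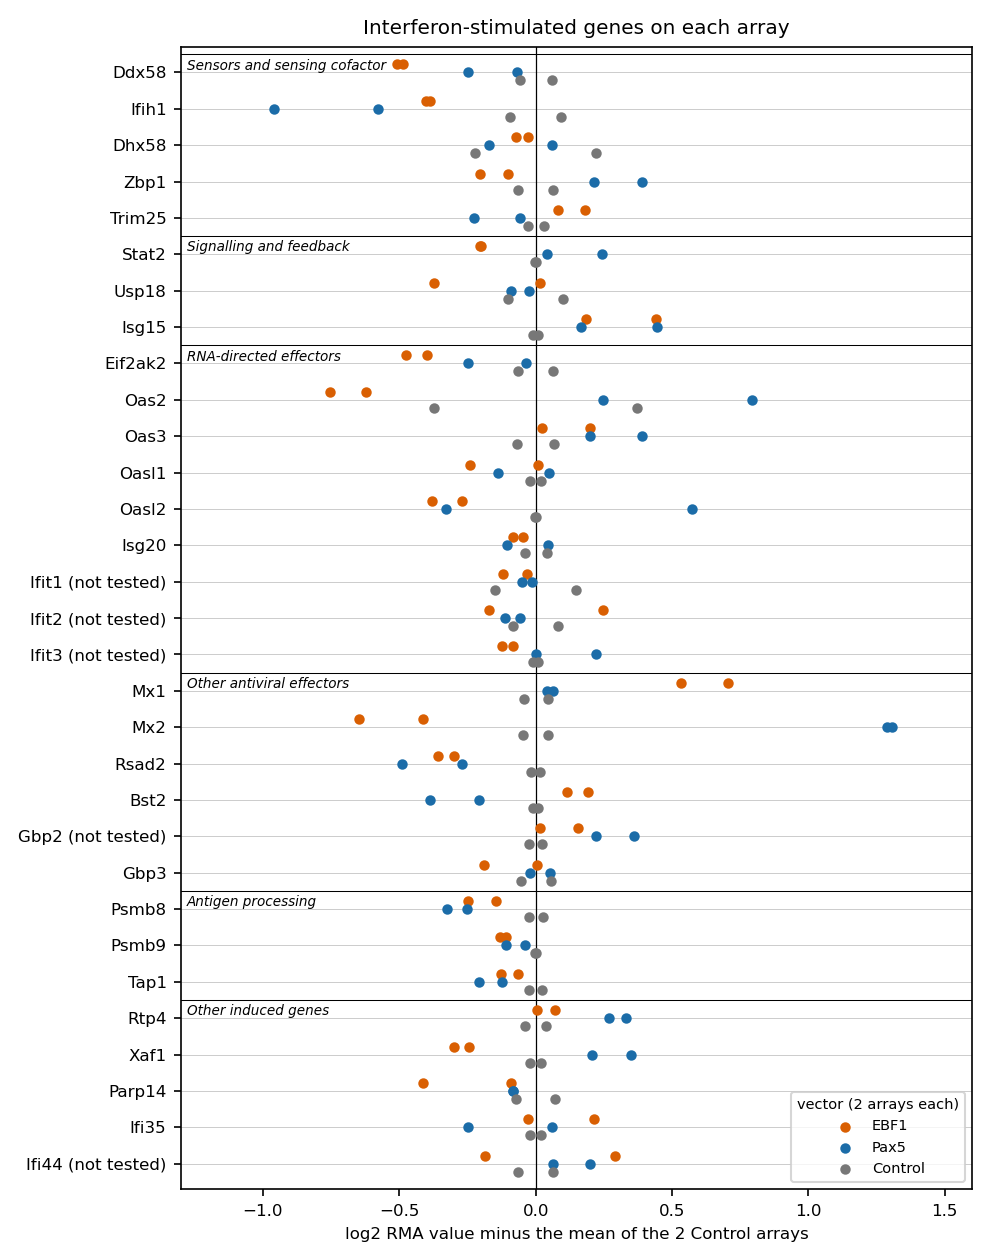
Log2 RMA value of each of the 31 members on each array, minus the mean of the 2 Control arrays, ordered by role (orange: EBF1, blue: Pax5, grey: Control; 2 arrays each). Most points lie within 0.5 of the Control mean, and the Pax5 arrays of Mx2 lie near 1.30.

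Mx1 and Mx2 are neighbours on chromosome 16 and encode dynamin-like GTPases that block the replication of viruses. In many laboratory mouse strains both genes are known to carry defects, and the strain of this line is not stated in the labels. Mx1 lay at 4.46 and 4.29 in EBF1 cells, 3.82 and 3.80 in Pax5 cells and 3.80 and 3.71 in Control cells. Both EBF1 arrays lay above the others, which lay together. Mx1 rose with EBF1 by 0.62 against Control (SE 0.09, adjusted p = 0.0172, limma), 1.54-fold, and was higher in EBF1 than in Pax5 cells by 0.57 (adjusted p = 0.012). Its difference with Pax5 against Control was 0.05 (adjusted p = 0.768). The call against Control was lost without EBF1 array 1 or 2 (adjusted p 0.14 and 0.077) and without Control array 1 or 2 (0.119 and 0.163). The call against Pax5 was lost without EBF1 array 1 or 2 (0.0921 and 0.0501). In the deposited annotation 22 of the 24 probes of the set match the Mx1 transcript.

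Mx2 lay at 4.93 and 4.69 in EBF1 cells, 6.63 and 6.65 in Pax5 cells and 5.29 and 5.38 in Control cells. No groups overlapped, with Pax5 far above Control and EBF1 below it. Mx2 rose with Pax5 by 1.30 against Control (SE 0.10, adjusted p = 0.00297, limma), 2.46-fold, and without Control array 1 the adjusted p was 0.0515. Mx2 fell by 0.53 with EBF1 against Control (adjusted p = 0.0383), and this call was lost without EBF1 array 1 or 2 (adjusted p 0.0916 and 0.199) and without Control array 1 or 2 (0.196 and 0.254). It was lower in EBF1 than in Pax5 cells by -1.83 (SE 0.10, adjusted p = 0.000478), 3.55-fold. This was the 1 call among the 11 that held in all 15 alternative analyses, with a difference between -1.95 and -1.71 and a highest adjusted p of 0.0413, the step-up p of the authors' deposited table. Mx1 and Mx2 thus differed between EBF1 and Pax5 cells in opposite directions, each tested by the direct comparison of these groups.

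Rsad2, which encodes viperin, lay at 3.62 and 3.56 in EBF1 cells, 3.65 and 3.43 in Pax5 cells and 3.94 and 3.90 in Control cells. All arrays with a factor lay below both Control arrays, and EBF1 and Pax5 overlapped. Its differences were -0.33 with EBF1 (SE 0.10, adjusted p = 0.12, limma) and -0.38 with Pax5 (0.0987), which did not pass. Without either Pax5 array the adjusted p with EBF1 was 0.0428, and without Pax5 array 1 the difference with Pax5 was -0.49 (0.0231).

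Bst2 encodes tetherin, which holds budding virus at the cell surface and is also a marker of plasmacytoid dendritic cells in the mouse. It lay at 9.29 and 9.22 in EBF1 cells, 8.89 and 8.71 in Pax5 cells and 9.11 and 9.09 in Control cells. The groups did not overlap, with EBF1 highest and Pax5 lowest. Bst2 was higher in EBF1 than in Pax5 cells by 0.45 (SE 0.09, adjusted p = 0.025, limma), 1.37-fold. The call was lost without EBF1 array 1 or 2 (adjusted p 0.159 and 0.111), without either Control array (0.0703) and without Pax5 array 2 (0.0523). Set against Control, the difference came to 0.15 in EBF1 cells (adjusted p = 0.424) and -0.30 in Pax5 cells (0.145), and without Pax5 array 1 -0.39 (0.039). The plasmacytoid marker Siglech lay at 8.27 and 8.17 in EBF1 cells, 8.01 and 8.03 in Pax5 cells and 9.07 and 9.11 in Control cells, and of the 8 tested markers of that list 1 rose and 2 fell with EBF1 and 0 rose and 2 fell with Pax5. For EBF1 against Pax5, 1 of the 8 was higher, Pacsin1 by 0.65 (adjusted p = 0.00714), and 1 lower, Ccr9 by -1.27 (0.00208). Siglech differed by 0.20 (0.146) and Cox6a2, which makes up most of the list's sum, by -0.31 (0.0553), and the median of the 8 was -0.002. The markers thus went both ways where Bst2 was higher, and the part of such cells was not tested. Gbp3, a guanylate-binding protein gene, lay between 3.14 and 3.39 on the EBF1, Pax5 and Control arrays, with all groups overlapping; its relatives are similar in sequence, so its probe set is uncertain.

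**Figure D4:**
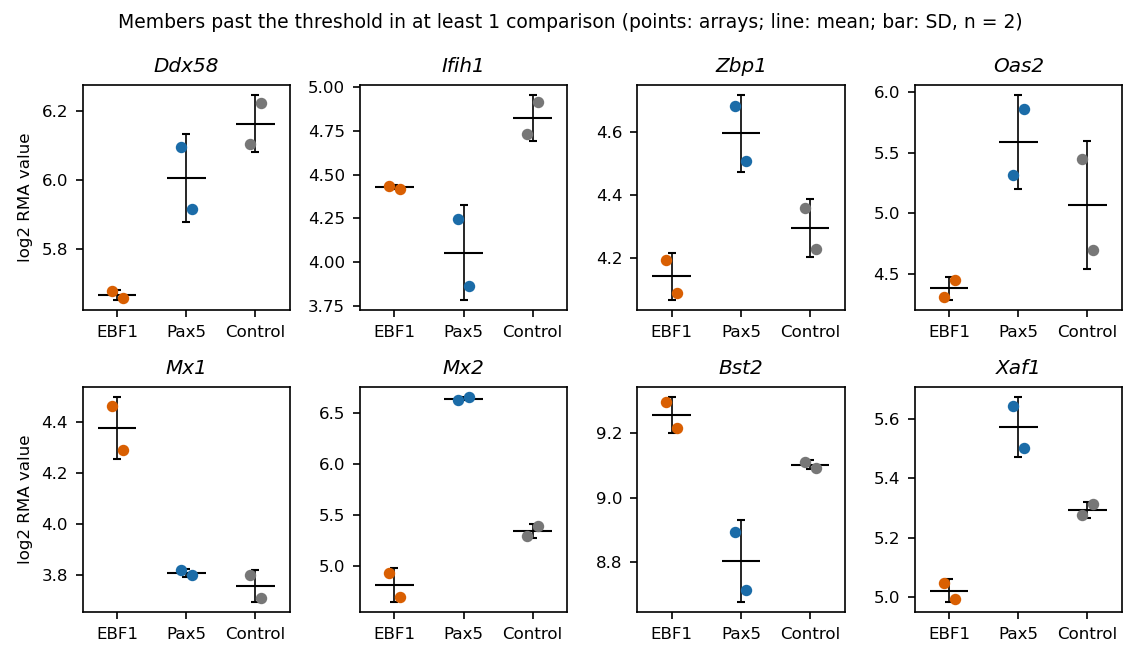
Log2 RMA values of the 8 members that passed in at least 1 comparison, in EBF1, Pax5 and Control cells (points: arrays, line: mean, bar: SD, n = 2; each panel has its own axis, which does not start at 0). The Mx2 points of Pax5 cells lie above 6.6 and those of EBF1 cells below 5, and the Control arrays of Oas2 lie apart, at 5.44 and 4.70.

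The members of antigen processing make and carry peptides for MHC class I. Psmb8 and Psmb9 encode inducible subunits of the immunoproteasome, and Tap1 a subunit of the peptide transporter. Psmb8 lay at 8.87 and 8.77 in EBF1 cells, 8.77 and 8.69 in Pax5 cells and 9.04 and 8.99 in Control cells. Both factors left it below both Control arrays, by -0.20 with EBF1 (adjusted p = 0.25, limma) and -0.29 with Pax5 (SE 0.08, adjusted p = 0.121). Psmb9 lay at 10.29 and 10.32 in EBF1 cells, 10.32 and 10.39 in Pax5 cells and 10.43 and 10.42 in Control cells. Tap1 lay at 8.65 and 8.59 in EBF1 cells, 8.59 and 8.50 in Pax5 cells and 8.69 and 8.74 in Control cells. For each of the 3 genes, which lie close together on chromosome 17, the arrays of either factor were below both Control arrays, and no difference passed. Both comparisons use the same Control arrays. Of all tested genes, 47.8% had a negative difference with EBF1 and 58% with Pax5, and the share without overlap is not reported here. At an unadjusted p under 0.05 there was 1 with EBF1 and 1 with Pax5, Psmb8 in each, and 0 for EBF1 against Pax5.

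The remaining members are induced genes of less certain or mixed function. Xaf1, which promotes cell death, lay at 5.05 and 4.99 in EBF1 cells, 5.64 and 5.50 in Pax5 cells and 5.27 and 5.31 in Control cells. The groups did not overlap, with Pax5 highest and EBF1 lowest, the order seen for Mx2, Zbp1 and Stat2. Bst2 and Trim25 had the reverse order without overlap. The share of all genes with either order is not reported here. Xaf1 was lower in EBF1 than in Pax5 cells by -0.55 (SE 0.08, adjusted p = 0.0104, limma), 1.47-fold. The call was lost without EBF1 array 1 or 2 (adjusted p 0.0772 and 0.0881). Set against Control, the difference came to -0.27 in EBF1 cells (adjusted p = 0.137) and 0.28 in Pax5 cells (0.141).

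Rtp4, a chaperone of membrane receptors, lay at 3.15 and 3.09 in EBF1 cells, 3.41 and 3.35 in Pax5 cells and 3.04 and 3.12 in Control cells. Both Pax5 arrays lay above all others, with a difference of 0.30 against Control (SE 0.08, adjusted p = 0.104, limma) and -0.26 for EBF1 against Pax5 (0.0797). Parp14, an ADP-ribosyltransferase gene, lay at 5.34 and 5.67 in EBF1 cells, 5.67 and 5.67 in Pax5 cells and 5.83 and 5.69 in Control cells, and both factors' arrays lay below Control without a call. Ifi35 lay at 5.89 and 6.13 in EBF1 cells, 5.67 and 5.98 in Pax5 cells and 5.94 and 5.90 in Control cells, with all groups overlapping.

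The 5 members below the filter were Ifit1, Ifit2 and Ifit3, whose products bind viral RNA and translation factors, Gbp2, a guanylate-binding protein gene, and Ifi44. Ifit1 lay between 2.53 and 2.83 over the 6 arrays, Ifit2 between 2.12 and 2.53 and Ifit3 between 2.23 and 2.57. Gbp2 lay between 2.63 and 3.02 and Ifi44 between 2.57 and 3.05. The 30th percentile of the arrays ran between 2.92 and 3.04, so the Ifit genes were under it on every array, and Gbp2 and Ifi44 above it on 1 array each. In Gbp2 both Pax5 arrays lay above both Control arrays, and both values stood near the mark. No test was made for these 5, and whether they are expressed cannot be read from these values.

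The other genes of the pathway were read from lists of their roles, whose counts stand beside the shares of all genes given above (5.6%, 4.22% and 13.9% for EBF1 against Control, Pax5 against Control and EBF1 against Pax5). Of 22 interferon genes, 16 had a probe set and 8 were tested. Ifng, the type II interferon, lay at 3.51 and 3.17 in EBF1 cells, 4.70 and 4.46 in Pax5 cells and 3.29 and 3.29 in Control cells. Both Pax5 arrays lay above all the others. Ifng rose with Pax5 by 1.29 against Control (SE 0.14, adjusted p = 0.00746, limma) and was lower in EBF1 than in Pax5 cells by -1.24 (adjusted p = 0.00401). The first call was lost without either Control array (adjusted p up to 0.0883), and the second held with each array left out. It was the 1 ligand called. With EBF1 against Control limma called 0 of the 8, and 2 had an unadjusted p under 0.05. Ifnb1, a type I interferon, stayed between 2.37 and 2.63, below the filter. The T and NK marker sum given above was also highest in Pax5 cells, mostly through Nkg7. Of the other tested markers of that list, none passed for Pax5 against Control. Cd3d, Cd3e, Cd4, Cd8a, Thy1 and Prf1 lay between -0.19 and 0.12, and Klrb1c at 0.44 (adjusted p = 0.404, limma). Klrb1c stood at 6.45 and 5.54 on the Pax5 arrays and 5.59 and 5.51 on the Control arrays. For EBF1 against Pax5, Nkg7 and Klrb1c were lower, by -1.60 and -1.41 (adjusted p 0.000274 and 0.0226, limma). The part of such cells was not tested.

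The receptors were all tested, with 1 higher and 2 lower with EBF1, 0 and 0 with Pax5 (3 at an unadjusted p under 0.05), and 1 higher and 1 lower for EBF1 against Pax5. Il10rb, the shared chain of the type III interferon and IL-10 receptors, lay at 7.54 and 7.56 in EBF1 cells, 8.20 and 8.24 in Pax5 cells and 8.52 and 8.49 in Control cells. The groups did not overlap, with EBF1 lowest. Il10rb fell by 0.95 with EBF1 against Control (SE 0.07, adjusted p = 0.00235, limma) and was lower than in Pax5 cells by -0.67 (adjusted p = 0.00368). Both calls held with each array left out, and the second held in all 15 alternatives. The chains of the type II receptor differed in sign: Ifngr1 fell by 0.52 with EBF1 (adjusted p = 0.0172) and Ifngr2 rose by 0.56 (0.0179). Each was lost without an EBF1 or Control array, with adjusted p up to 0.164. The difference of Ifngr2 between EBF1 and Pax5 cells, 0.37 (adjusted p = 0.0364), was lost without any 1 of the 6 arrays (up to 0.2). For the type I receptor, Ifnar1 differed by -0.10 with EBF1 and 0.01 with Pax5, and Ifnar2 by -0.24 (adjusted p = 0.197) and -0.22 (0.226). Il28ra, the other type III chain, differed by -0.05 with EBF1 and 0.02 with Pax5.

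**Figure D5:**
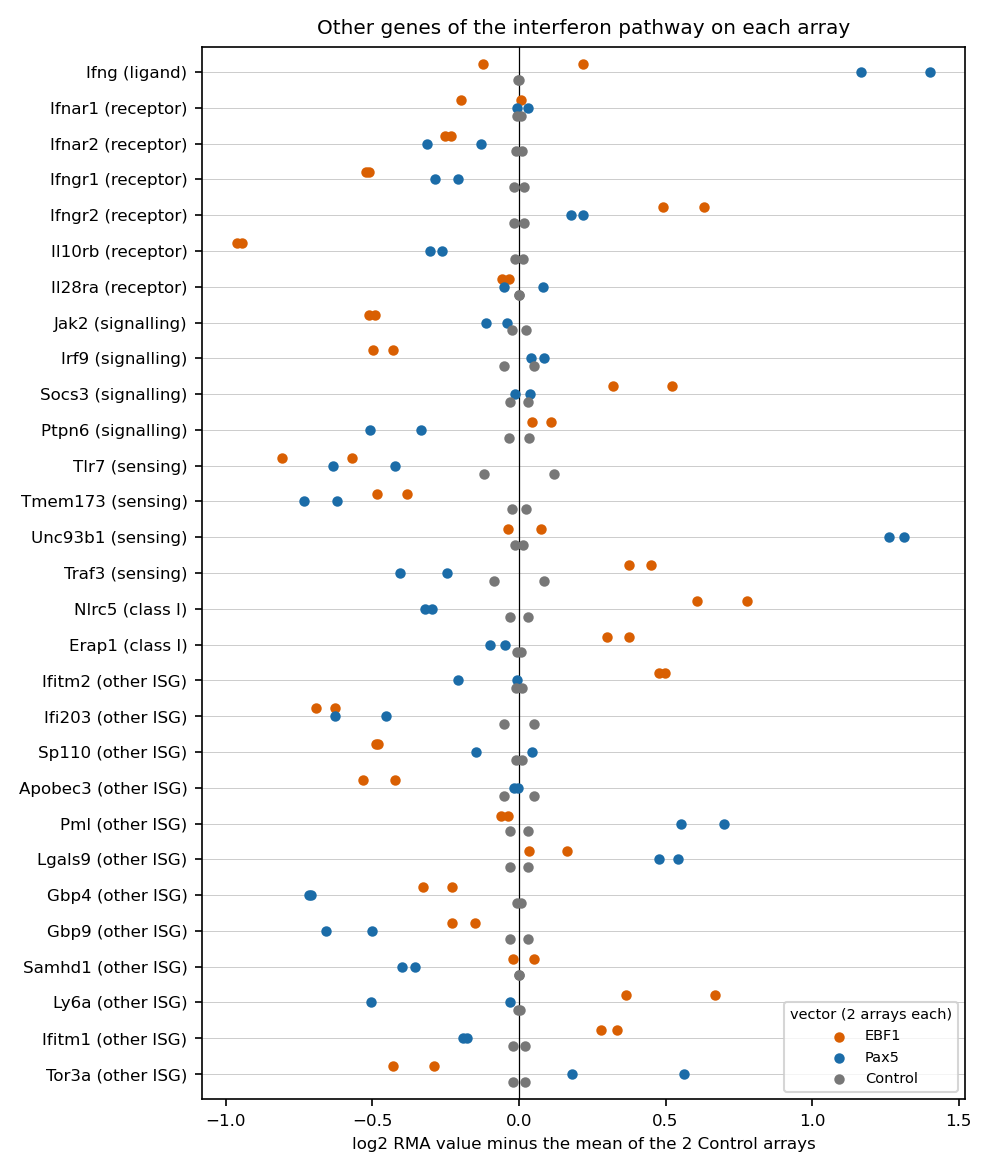
Log2 RMA value minus the mean of the 2 Control arrays for the named pathway genes outside the 31 members, with their list in brackets (orange: EBF1, blue: Pax5, grey: Control; 2 arrays each). Ifng and Unc93b1 lie near 1.29 on the Pax5 arrays, and Il10rb near -0.95 on the EBF1 arrays.

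Of the 11 signalling genes, all tested, 0 were higher and 2 lower with EBF1, 0 and 0 with Pax5 (4 at an unadjusted p under 0.05), and 2 higher and 2 lower for EBF1 against Pax5. Irf9, the DNA-binding partner of STAT2, lay at 5.998 and 5.93 in EBF1 cells, 6.51 and 6.47 in Pax5 cells and 6.48 and 6.38 in Control cells. The EBF1 arrays lay below all others. Irf9 fell by 0.46 with EBF1 against Control (SE 0.08, adjusted p = 0.0284, limma), and was lower than in Pax5 cells by -0.53 (adjusted p = 0.0104). The kinase gene Jak2 fell by 0.50 with EBF1 (adjusted p = 0.0186) and was lower than in Pax5 cells by -0.42 (0.0167). Socs3 and Ptpn6, which encode negative regulators of cytokine signalling, were higher in EBF1 than in Pax5 cells by 0.41 (adjusted p = 0.0374) and 0.50 (0.0185). All of these calls were lost with 1 of the EBF1 or Control arrays left out, with adjusted p up to 0.232 for Irf9 with EBF1, 0.0885 for Irf9 against Pax5, 0.175 for Jak2 with EBF1, 0.119 for Jak2 against Pax5, 0.188 for Socs3 and 0.132 for Ptpn6. Irf9 against Pax5 was lost only without an EBF1 array, and Socs3 was lost without any 1 of the 6.

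Of 17 sensing genes, 15 were tested, with 0 higher and 2 lower with EBF1, 1 and 1 with Pax5, and 1 and 1 for EBF1 against Pax5. Unc93b1, which escorts endosomal Toll-like receptors, lay at 6.91 and 6.79 in EBF1 cells, 8.14 and 8.09 in Pax5 cells and 6.82 and 6.84 in Control cells. The Pax5 arrays stood far above the others. Unc93b1 rose with Pax5 by 1.29 (SE 0.08, adjusted p = 0.00154, limma) and was lower in EBF1 than in Pax5 cells by -1.27 (adjusted p = 0.000686), and both calls held with each array left out. Tmem173, which encodes the DNA-pathway adaptor STING, fell by 0.43 with EBF1 (adjusted p = 0.0409) and by 0.68 with Pax5 (0.0115). Tlr7, a receptor for viral RNA, fell by 0.69 with EBF1 (adjusted p = 0.0405). Traf3, an adaptor of these receptors, was higher in EBF1 than in Pax5 cells by 0.74 (adjusted p = 0.0071). With 1 Control or EBF1 array left out, adjusted p reached 0.264 for Tmem173 with EBF1, 0.134 for Tmem173 with Pax5, 0.256 for Tlr7 and 0.0728 for Traf3.

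Among 64 further interferon-stimulated genes, 46 were tested, with 1 higher and 5 lower with EBF1, 2 and 4 with Pax5, and 7 and 8 for EBF1 against Pax5. Their median differences were -0.10, -0.08 and -0.10. These lists were chosen with earlier results known, and the counts are descriptions. With EBF1, Ifitm2, which blocks virus entry, rose by 0.49 (adjusted p = 0.0361, limma), and Ifi203, Sp110 and Apobec3 fell by 0.66, 0.48 and 0.48 (adjusted p 0.016, 0.0357 and 0.029). With Pax5, Pml, a nuclear body gene, rose by 0.63 (adjusted p = 0.0154) and Lgals9 by 0.51 (0.0289). Gbp4, Gbp9 and Samhd1 fell by 0.71, 0.58 and 0.38 with Pax5 (adjusted p 0.00746, 0.0225 and 0.0496), and Ifi203 fell by 0.54 (0.0332). As for Gbp3, the relatives of Gbp4 and Gbp9 are similar in sequence, so their probe sets are uncertain. For EBF1 against Pax5, Ly6a was higher in EBF1 cells by 0.79 (adjusted p = 0.035) and Ifitm1 by 0.49 (0.01), and Tor3a was lower by -0.73 (0.0197). Each call in this paragraph was lost when some 1 of the EBF1, Pax5 or Control arrays was left out, the highest adjusted p then lying between 0.0905 (Ifitm1) and 0.299 (Samhd1).

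Of 15 tested genes of MHC class I presentation, 1 was higher with EBF1, 0 changed with Pax5 (4 at an unadjusted p under 0.05) and 2 were higher in EBF1 than in Pax5 cells. Nlrc5, the transactivator of class I genes, lay at 8.58 and 8.75 in EBF1 cells, 7.67 and 7.65 in Pax5 cells and 7.9995 and 7.94 in Control cells. The groups did not overlap, with EBF1 highest and Pax5 lowest. Nlrc5 rose with EBF1 by 0.69 (SE 0.09, adjusted p = 0.0107, limma; up to 0.123 with an EBF1 or Control array left out) and was higher than in Pax5 cells by 1.00 (adjusted p = 0.00182), which held with each array left out. Erap1, which trims peptides, was higher in EBF1 than in Pax5 cells by 0.41 (adjusted p = 0.0187; up to 0.134 with an EBF1 or Control array left out). Psmb8, Psmb9 and Tap1, the members of this machinery described above, were all below Control with either factor and passed in no comparison.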

How the data were processed

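RNA from 6 samples was measured on Affymetrix arrays. RMA and Partek 6.5 are named in the submitters' processing notes. The deposited log2 values are the authors' expression values per probe set after RMA, already normalized between arrays. RMA options, annotation version and build are not stated there. A second deposited table repeats these values (largest difference 0) and, per the file headers, adds the authors' p-value and step-up p-value, ratio of group means, signed fold change and F statistic (treated as scores). Only the step-up p-value was used, as an alternative.

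Symbols came from the deposited annotation, whose text ends at 255 characters. Of 28350 probe sets, 22969 carried 1 symbol, 2285 several and 3096 none, and 22138 matched a RefSeq gene table (GRCm38.p6). The probe set with the highest mean over the 6 arrays stood for a gene. Genes above the 30th percentile on at least 2 arrays (15295) entered limma 3.58.1, run under R 4.3.3 (lmFit, contrasts and eBayes, two-sided), with 1 mean per group, 3 residual and 3.18 prior degrees of freedom, and Benjamini-Hochberg adjustment over all of them. Adjusted p values are from this model, from its refits where an array is left out, or from the authors' table where that is named. The fit was tested on simulated data.

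The members and lists were chosen with earlier results of these data known. All 31 members are accounted for. Of the pathway lists, all receptors, the called signalling and sensing genes, and up to 4 called genes per direction and comparison of the other lists are named. Same-numbered arrays of the groups showed no shared deviation: their deviations correlated at 0.009 (EBF1 and Control), 0.007 (Pax5 and Control) and -0.012 (EBF1 and Pax5) across genes. These values cannot tell whether such arrays were infected or processed together. RMA values carry no detection call. Precision is limited by having 2 arrays per group. Some genes of the lists are not reported here by name.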

Additional observations from a re-analysis of the deposited data

How the results depend on the processing

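Over 15 alternative analyses of the tested members, no difference called on all 6 arrays changed its sign. Each member had 1 probe set, so most alternatives changed its p-value and could not change its difference. A difference could move only with repeated quantile normalization or with an array of a compared group left out. Of 1152 recomputed differences, 1064 stayed on the same side of the threshold, 62 lost the call and 26 gained one. Among the 1064, 30 values of 20 uncalled differences had the other sign. The members called for EBF1 against Control, Pax5 against Control and EBF1 against Pax5, which were 3, 2 and 6, became 1, 1 and 3 with every probe set as its own row, and 1, 1 and 4 with no filter on low values. With the trend and robust options of limma they were 4, 4 and 9, and with only the 4 arrays compared 5, 1 and 4. By the step-up p of the authors' deposited table they were 0, 0 and 1. With the array number as a replicate block they were 1, 1 and 5, although same-numbered arrays showed no shared deviation. Leaving out 1 array at a time gave 0 to 5, 0 to 4 and 1 to 9. A group left with 1 array was assumed to vary like the others. For these moves the cause was not tested. The mean of a gene's probe sets gave 3, 2 and 6, a 50th percentile filter 4, 2 and 8 and repeated quantile normalization 3, 2 and 8.

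Over all tested genes, the 857, 646 and 2128 calls ranged down to 103, 60 and 410 and up to 1424, 2407 and 3884 when 1 array was left out. They were 558, 446 and 1674 with every probe set as its own row, 578, 449 and 1586 with no filter, 1324, 1000 and 2855 with the 50th percentile filter and 1786, 1643 and 3369 with the trend and robust options. With only the 4 arrays compared they were 1424, 240 and 1093, with the replicate block 565, 412 and 1741, and by the authors' step-up p 6, 20 and 449.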
